A study of Homo sapiens with 4 samples.

Results

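The nucleotides examined here are the 5 on each side of one selected adenosine in synthetic RNAs that carry human transcript sequence. Each sequence is 141 positions long in the deposited table and has its selected adenosine at position 51, so the examined nucleotides are positions 46 to 50 and 52 to 56. They are named by their offset from the adenosine, from -5 to +5. The m6A class gave 1988 sequences, whose selected adenosine is methylated in HEK293T cells, which derive from human embryonic kidney. The unmodified class gave 1500, whose selected adenosine is unmethylated there. Every selected adenosine stands in a DRACN motif, where D excludes cytidine, R is a purine and N may be any base. The table's letters are kept for sequences, with T standing for uridine. Of 34880 such positions, 288 were left out because they are themselves the adenosine of another DRACN motif: 84 at offset -5, 59 at -4, 82 at +4 and 63 at +5. This left 34592 positions, 19719 in the m6A class and 14873 in the unmodified class, of 556809 positions in the whole table.

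In the methylated group the pool of 11999 transcripts had been incubated with the recombinant METTL3–METTL14 writer complex, and in the unmethylated group the same pool had been incubated without it. Each group has 2 libraries, and all 4 were made from 500 ng of RNA by immunoprecipitation with an antibody against N6-methyladenosine. No cell or cell extract was present, and the class names describe HEK293T cells and not these RNAs. The study asked whether the sequence preference of methylation lies in the writer complex itself.

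METTL3 transfers a methyl group to the adenosine in the middle of DRACH motifs, and METTL14 helps to hold the RNA. GGAC is the best known core of these motifs in human mRNA. In miCLIP2 the antibody is crosslinked to the RNA with ultraviolet light, and reverse transcription tends to stop at the peptide that remains, so that read starts mark crosslinks. Uridines crosslink readily to proteins under ultraviolet light, whether or not a modification is near. A count is a read start that the authors assigned to a position, and reads were not stated to be collapsed to molecules.

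Library totals were 13110615 and 13265092 counts in the methylated libraries, against 10483825 and 12028474 in the unmethylated libraries. The examined nucleotides held 7.03% to 7.46% of the counts of the methylated libraries and 6.64% to 6.89% of those of the unmethylated libraries. Most of them were thinly covered. The median position had 7 counts over the 4 libraries, 7927 positions had none, and 9409 reached at least 10 counts in at least 2 libraries and were tested. Of the tested positions, 713 passed through the methylated libraries alone and 104 through the unmethylated libraries alone. The imbalance was largest at offset -1, where 109 of 901 tested positions passed through the methylated libraries alone and 11 through the unmethylated libraries alone, so counts of calls describe the positions that passed and not all positions.

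The selected adenosine in its motif and the base before it are shown for the sequences with the largest changes at offset -1. Each line gives the 21 bases around the selected adenosine, 5′ to 3′, with the motif from offset -2 to +2 in capitals. The first 7 sequences had some of the largest rises at offset -1 among those that met the naming rule. The last 2 had the falls with the smallest p.
PIGU: ggctgcatGGACCtcaggggg
RHNO1: acccccgaGGACAagtatgga
SH2D5: atgctttgGGACTtctgggct
HIF1AN: cacttaatGGACTggactctt
IER5L: accccttcGGACTtcggcttg
FLCN: tccgaggaGGACAatgtcaag
SLC25A28: ttggctttGAACTcacacatt
DLX1: cgcctggaGGACCcaggtacg
NAB2: agaggcacAGACAgaggcgcg
FLCN and NAB2 belong to the unmodified class and the other sequences to the m6A class. Coordinates are those of the deposited table. The sources used here do not name its build, but all 77 selected adenosines that lie inside a RefSeq promoter window of GRCh38.p14 have the same 21 bases there. No exon or UTR annotation was used here.

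The nucleotide just before the selected adenosine, at offset -1, carried more signal in the methylated libraries. Signal was first summed over all sequences of a class, without a filter, and given as counts per 1000 counts of the same sequences in the same library. In the m6A class, offset -1 had 6.27 and 6.54 counts per 1000 in the methylated libraries, against 4.30 and 4.62 in the unmethylated libraries. The groups did not overlap, and the ratio of their means was 1.44 ± 0.08 (SD, n = 2 each). The exact permutation test of this difference gave p = 0.333 (two-sided), which is the smallest value that 2 libraries against 2 allow. The adenosine itself had 14.8 and 13.8 counts per 1000 in the methylated libraries, against 4.80 and 5.44 in the unmethylated libraries, a ratio of 2.79 ± 0.28. The difference at offset -1 was 1.95 counts per 1000 and that at the adenosine 9.16, so the gain at offset -1 was 21.2% of that at the adenosine. Ratios in the text are ratios of group means, each with the SD that the 2 libraries of each group give it.

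In the unmodified class the same nucleotide differed less. It had 4.89 and 5.35 counts per 1000 in the methylated libraries, against 4.64 and 4.79 in the unmethylated libraries, and the ratio was 1.09 ± 0.07. The libraries did not overlap, but the difference of 0.40 counts per 1000 was close to its SD of 0.35. The adenosine of this class had a ratio of 1.63 ± 0.08, and the gain at offset -1 was 13.2% of the gain there.

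The opposite neighbour, the cytidine that follows the adenosine in every DRACN motif, showed no such gain in the pooled signal. Offset +1 of the m6A class had 7.06 and 6.02 counts per 1000 in the methylated libraries, against 8.15 and 6.57 in the unmethylated libraries. The groups overlapped, and the ratio was 0.89 ± 0.17. In the unmodified class the ratio was 1.03 ± 0.17, again with overlapping libraries.

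The other 9 offsets of the m6A class had ratios from 0.89 to 1.26 with a median of 1.03. For comparison, the 30 offsets from 6 to 20 nt on both sides had ratios from 0.90 to 1.17 with a median of 1.05. Offset -5 stood at the top of the 9 with 8.67 and 7.70 counts per 1000 in the methylated libraries, against 6.23 and 6.77 in the unmethylated libraries, a ratio of 1.26 ± 0.13. Offset -3 had 7.06 and 6.54 counts per 1000 in the methylated libraries, against 5.50 and 6.23 in the unmethylated libraries, a ratio of 1.16 ± 0.12. Offset -4 was the strongest of the 10 offsets in every library, with 17.2 and 16.6 counts per 1000 in the methylated libraries and 16.9 and 16.3 in the unmethylated libraries. Its ratio was 1.02 ± 0.04, and the groups overlapped.

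**Figure D1:**
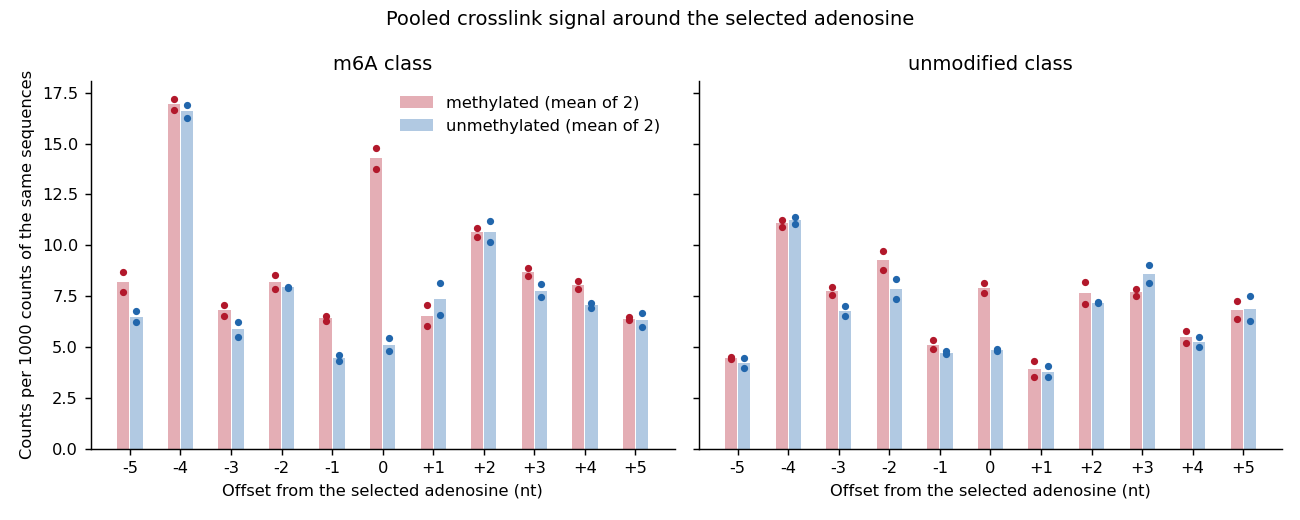
Counts at each offset per 1000 counts of the same sequences in the m6A class (left) and the unmodified class (right), as means (bars) and single libraries (points) of the methylated and unmethylated groups. In the m6A class offsets 0 and -1 show the largest ratios, 2.79 and 1.44, while offset -4 is high in all 4 libraries.

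Each position was then tested by itself. edgeR's quasi-likelihood test compared the groups at 142938 positions of the whole table that passed the filter, with Benjamini-Hochberg adjustment over all of them and a threshold of 0.05. Over the whole table, 3.7% of the tested positions were called higher in the methylated libraries and 2.01% lower. At offset -1, 103 of 901 tested positions were called higher (11.4%) and 13 lower (1.44%), with a median log2 fold change of 0.23. At the other 9 offsets, 329 of 8508 were called higher (3.87%) and 138 lower (1.62%), with a median of 0.09. The share at offset -1 is about 3 times that of the whole table, and the share at the other 9 offsets is near it. The whole table includes the adenosines themselves. More than 20 nt from the selected adenosine, leaving out DRACN adenosines, 2074 of 91024 positions were called higher (2.28%), a lower share than at the other 9 offsets. At those 9 offsets the m6A class had 270 rises among 5536 positions (4.88%) and the unmodified class 59 among 2972 (1.99%).

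The calls at offset -1 depended on the number of methylated libraries. Without methylated replicate 1, 40 of 777 positions were called higher (5.15%, against 1.42% of all positions tested in that fit), and without methylated replicate 2, 23 of 758 (3.03%, against 1.08%). At the other 9 offsets the counts were 97 and 81, or 1.27% and 1.07% of the positions tested there. Leaving out unmethylated replicate 1 or 2 gave 95 or 96 rises at offset -1. With a filter of 40 counts summed over the 4 libraries, which does not look at the groups, 106 of 834 positions were called higher there (12.7%, against 4.23% of all positions tested in that fit). All 103 positions had both methylated libraries above both unmethylated libraries. That order held for 41.3% of the tested positions at offset -1, 30.3% of those at the other 9 offsets and 26.0% of all tested positions.

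A count at a position also moves with the abundance of its whole sequence in a library. When each position was instead set against the total of its own sequence, 1.8% of all tested positions were called higher and 0.403% lower. By that measure 64 of 901 positions were higher at offset -1 (7.10%) and none lower, and 61 of the 64 were among the 103. At the other 9 offsets 89 of 8508 were higher (1.05%) and 15 lower (0.18%), a share below that of the whole table. More than 20 nt from the selected adenosine, leaving out DRACN adenosines, 589 of 91024 were higher by this measure (0.65%). The whole table includes the selected adenosines. The total of a sequence includes its adenosine too, so a rise there lowers the values of its other positions by this measure. edgeR gave 0 falls at offset -1 in this fit, in which 11 positions were lower at an unadjusted p under 0.05. DESeq2, which does not use sequence totals, gave 8 falls there.

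The 2 classes had different shares of rises at offset -1. There the m6A class had 90 rises among 582 tested positions (15.5%, median log2 fold change 0.34). In the unmodified class 13 of 319 were called higher (4.08%, median 0.05), a share close to that of the whole table. The classes differ in their motifs. In GGAC sequences 83 of 348 positions were higher in the m6A class (23.9%, median 0.61) and 10 of 70 in the unmodified class (14.3%, median 0.14). The bases at offset +2 differ between the classes too. GGACA positions had 24 of 92 rises (26.1%) in the m6A class and 6 of 19 (31.6%) in the unmodified class. GGACC positions had 10 of 66 (15.2%) and 4 of 47 (8.51%), and GGACT positions 36 of 151 (23.8%) and 0 of 4. Outside GGAC 3 of 249 positions of the unmodified class were higher (1.20%). Without methylated replicate 1 or 2 both classes had fewer rises, as did the whole table. Against sequence totals the counts were 57 of 582 (9.79%) in the m6A class and 7 of 319 (2.19%) in the unmodified class. The selected adenosines themselves were called higher at 380 of 754 tested positions in the m6A class (50.4%) and at 96 of 370 in the unmodified class (25.9%). No test of the difference between the classes was made, since sequences are not replicates and 2 libraries a group cannot give an exact permutation p below 0.333.

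**Figure D2:**
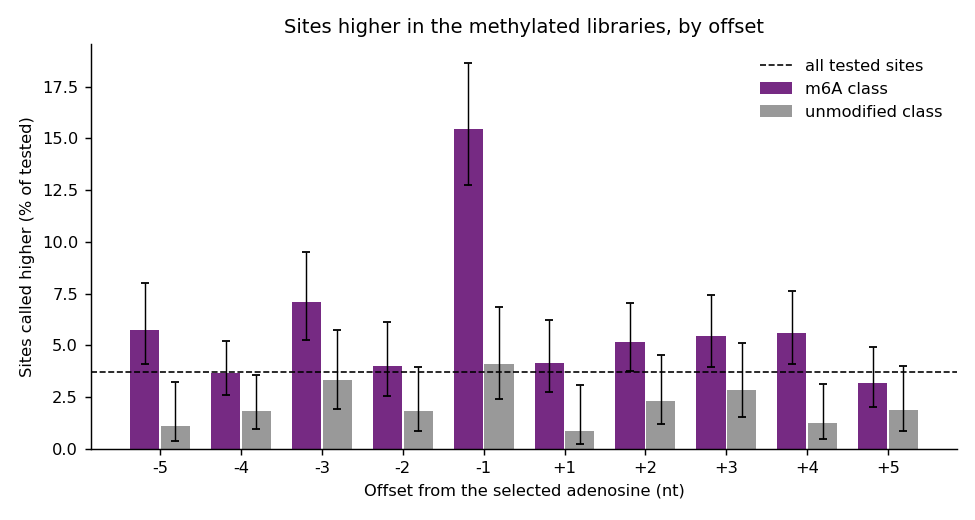
Share of tested positions called higher in the methylated libraries at each offset, in the m6A and the unmodified class, with 95% Wilson intervals over positions (counting error only). The dashed line is the 3.7% of all tested positions, and offset -1 of the m6A class stands at 15.5%.

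Among the rises at offset -1, almost all lay in one motif. Of the 103, 93 (90.3%) were in GGAC sequences, which have G at offsets -2 and -1. The others were 5 in GAAC, 3 in AGAC, 1 in AAAC and 1 in TGAC. Of the tested GGAC positions, 93 of 418 were higher at offset -1 (22.2%, median log2 fold change 0.53), whereas 10 of 483 were higher in the motifs with other bases before the adenosine (2.07%, median 0.10). Against sequence totals the counts were 59 of 418 (14.1%) and 5 of 483 (1.04%). Without methylated replicate 1 or 2, GGAC positions had 35 of 341 (10.3%) or 21 of 335 rises (6.27%), and the other motifs 5 of 436 (1.15%) or 2 of 423 (0.47%).

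Other motifs with a guanosine at offset -1 had few rises. AGAC and TGAC sequences share that guanosine with GGAC sequences, but 3 of 160 positions were called higher in AGAC (median log2 fold change -0.06) and 1 of 131 in TGAC (median 0.05). Both shares, 1.88% and 0.76%, are below the 3.7% of all tested positions. Where the base at offset -1 is an adenosine, 5 of 131 positions were higher in GAAC (3.82%, median 0.33), and 1 of 42 in AAAC (2.38%, median 0.12). The GAAC median lay above those of AGAC and TGAC although few of its positions were called.

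The pooled signal, which needs no filter, also put GGAC first. In GGAC sequences of the m6A class, offset -1 had 6.36 and 6.76 counts per 1000 in the methylated libraries, against 3.67 and 4.02 in the unmethylated libraries, a ratio of 1.71 ± 0.13. The difference was 2.72 counts per 1000 with an SD of 0.38. In AAAC sequences it had 7.40 and 6.98 counts per 1000 in the methylated libraries, against 5.43 and 5.56 in the unmethylated libraries, a ratio of 1.31 ± 0.06. In GAAC sequences the values were 8.11 and 7.82 in the methylated libraries, against 6.43 and 7.35 in the unmethylated libraries, with a ratio of 1.16 ± 0.11. These 3 motif classes had no overlap between the groups, and the same 3 had none in the unmodified class. Both methylated libraries also lay above both unmethylated ones at 26.0% of all tested positions. AGAC sequences had 4.28 and 4.86 counts per 1000 in the methylated libraries, against 4.19 and 4.44 in the unmethylated libraries, and the groups overlapped. TGAC sequences had 5.45 and 5.33 in the methylated libraries, against 5.43 and 5.00 in the unmethylated libraries, and overlapped too.

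The gain at offset -1 can be read against the gain at the adenosine of the same sequences. It was 22.7% of it in GGAC, 24.5% in AAAC and 20.04% in GAAC sequences of the m6A class. It was 7.82% in AGAC, 5.63% in TGAC and 5.69% in TAAC sequences. The adenosine of the AGAC sequences did gain, with 11.4 and 10.5 counts per 1000 in the methylated libraries, against 7.10 and 8.30 in the unmethylated libraries. In the unmodified class the gains outside GGAC were near or below their spread. At offset -1 the GGAC sequences had 4.27 and 5.15 counts per 1000 in the methylated libraries, against 3.23 and 3.44 in the unmethylated libraries. The ratio was 1.41 and the difference 1.38 with an SD of 0.64, which was 26.1% of the gain at the adenosine. GAAC sequences had 28.7%, from a difference of 0.78 with an SD of 0.70. AAAC sequences had 24.1% and TAAC sequences 17.97%, with differences of 0.54 and 0.51 and SDs of 0.54 and 0.72. The difference was -0.29 in AGAC sequences and -0.03 in TGAC sequences, within SDs of 0.50 and 0.16.

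**Figure D3:**
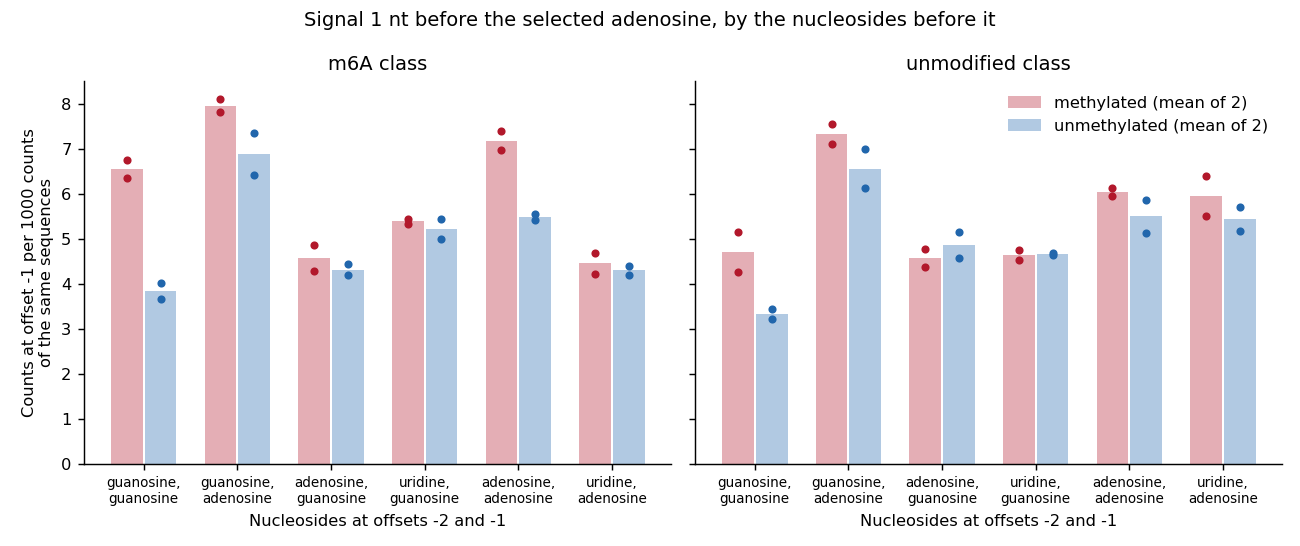
Counts at offset -1 per 1000 counts of the same sequences, by the 2 nucleosides at offsets -2 and -1, for the m6A class (left) and the unmodified class (right); bars are means and points single libraries of the methylated and unmethylated groups. In the m6A class the sequences with guanosine at both offsets show the largest ratio, 1.71.

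The base that follows the cytidine, at offset +2, divided the GGAC sequences further. At offset -1 of both classes, 13 of 39 GGACG positions were called higher (33.3%, median log2 fold change 1.02), 30 of 111 GGACA positions (27.0%, median 0.61), 36 of 155 GGACT positions (23.2%, median 0.57) and 14 of 113 GGACC positions (12.4%, median 0.25). Against sequence totals the order was another, with 21 of 111 GGACA positions (18.9%), 25 of 155 GGACT positions (16.1%), 5 of 39 GGACG positions (12.8%) and 8 of 113 GGACC positions (7.08%). GGACG lies outside the DRACH consensus, in which the last base is not G, and all of its sequences here are in the m6A class. By pooled signal the order differed again. GGACC sequences of the m6A class had the highest ratio at offset -1, with 8.28 and 9.39 counts per 1000 in the methylated libraries, against 3.47 and 3.77 in the unmethylated libraries (ratio 2.44 ± 0.26). The PIGU sequence, described next, is one of these GGACC sequences, and no ratio without it is given here. Position by position, 10 of 66 GGACC positions of the m6A class were called higher (15.2%, median log2 fold change 0.42). Both values were the lowest of the 4 motifs in that class. GGACG sequences had 6.28 and 6.42 counts per 1000 in the methylated libraries, against 4.58 and 4.24 in the unmethylated libraries (ratio 1.44 ± 0.08). The order of the 4 motifs is therefore not settled.

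The PIGU sequence had the largest counts at offset -1 among the named sequences (chr20:34560830-34560850, minus strand). PIGU is a subunit of the enzyme that attaches glycosylphosphatidylinositol anchors to proteins. The guanosine before its adenosine had 3881 and 4552 counts in the methylated libraries, against 256 and 378 in the unmethylated libraries. The adenosine had 7496 and 6763 counts in the methylated libraries, against 230 and 333 in the unmethylated libraries. The log2 fold change was 3.48 ± 0.28 at offset -1 (SE, edgeR quasi-likelihood test, adjusted p = 1.98e-08) and 4.41 at the adenosine. Against the total of the sequence it was 2.73 at offset -1 (adjusted p = 3.44e-10 by the same test).

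IER5L, whose product resembles an immediate early response protein, had 77 and 97 counts at offset -1 in the methylated libraries, against 8 and 5 in the unmethylated libraries (chr9:129177309-129177329, minus strand). Its log2 fold change was 3.45 ± 0.45 (edgeR). SH2D5, an adaptor protein gene, had 45 and 31 counts in the methylated libraries, against 0 and 4 in the unmethylated libraries (chr1:20721485-20721505, minus strand). Its log2 fold change was 3.93 ± 0.70 (edgeR). In both sequences the 2 methylated libraries lay well above both unmethylated ones, at the adenosine too.

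FLCN, the gene of the tumour suppressor folliculin, gave the largest named rise of the unmodified class (chr17:17213751-17213771, minus strand). Offset -1 had 54 and 70 counts in the methylated libraries, against 3 and 6 in the unmethylated libraries. The log2 fold change was 3.49 ± 0.50 (edgeR). Its adenosine had 71 and 89 counts in the methylated libraries, against 4 and 6 in the unmethylated libraries.

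The remaining 3 rises rest on few counts in the unmethylated libraries. RHNO1, which acts in the DNA damage checkpoint, had 22 and 58 counts at offset -1 in the methylated libraries, against 1 and 2 in the unmethylated libraries (chr12:2888346-2888366, plus strand). The ratio per library total was 22.8, with a 95% counting interval of 7.51 to 113. HIF1AN, the hydroxylase that restrains hypoxia-inducible factor, had 11 and 11 counts in the methylated libraries, against 1 and 0 in the unmethylated libraries (chr10:100548237-100548257, plus strand). Its ratio of 18.8 has an interval of 3.04 to 775, which is too wide to give a size.

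SLC25A28, a mitochondrial iron carrier gene, was the one rise outside GGAC among those shown. It had 13 and 18 counts at offset -1 in the methylated libraries, against 2 and 0 in the unmethylated libraries (chr10:99611041-99611061, minus strand). The ratio was 13.2, with a counting interval of 3.37 to 114. The whole sequence had a mean of 1923 counts in the methylated libraries and 616 in the unmethylated libraries. Against that total the log2 fold change was 2.24, and the position was not called by edgeR. HIF1AN and SLC25A28 passed the filter through the methylated libraries alone, in which they were high, and neither had enough counts for the filter of 40 over the 4 libraries, so no test is given for their rises. IER5L, SH2D5, FLCN and RHNO1 also passed through the methylated libraries alone, so their p in the first fit is not given. All 4 were called with the filter of 40 counts over the 4 libraries (edgeR, adjusted p from 3.12e-06 to 2.67e-04).

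The falls at offset -1 were not called once sequence totals were used. DLX1, a homeobox transcription factor gene, had 77 and 64 counts in the methylated libraries, against 220 and 406 in the unmethylated libraries (chr2:172085975-172085995, plus strand). The log2 fold change was -2.39 ± 0.32 (edgeR, adjusted p = 2.72e-05). The whole DLX1 sequence had a mean of 10862 counts in the methylated libraries and 67235 in the unmethylated libraries. Against sequence totals the direction turned, to 0.51, and the position was not called (edgeR, adjusted p = 0.432). NAB2, a corepressor of early growth response factors, had 16 and 15 counts in the methylated libraries, against 45 and 82 in the unmethylated libraries (chr12:57089106-57089126, plus strand), and its whole sequence had a mean of 2854 counts in the methylated libraries and 8713 in the unmethylated libraries. Its log2 fold change was -2.27 ± 0.41 (edgeR, adjusted p = 9.42e-04), and -0.40 against sequence totals.

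Within a sequence, offset -1 and the adenosine changed together. Both were tested in 812 sequences. Among the 355 of them with the adenosine called higher, 102 were called higher at offset -1 as well (median log2 fold change 0.89). None of the 355 was called lower by edgeR or by DESeq2, and 3 were lower at an unadjusted p under 0.05 in edgeR. Among the 457 with the adenosine not called higher, 1 was higher at offset -1 and 12 were lower (median -0.05). Of the 89 sequences with an adenosine too thinly covered to test, none was called higher by edgeR or DESeq2, with 5 at an unadjusted p under 0.05 in edgeR. Across the 812 sequences Pearson's r of the log2 fold changes was 0.77 and Spearman's rho 0.74. Both values come from the same 4 libraries and share the abundance of the sequence, and against sequence totals r was 0.67 and rho 0.62.

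Other offsets followed the adenosine less closely. By the same measure r was between 0.36 and 0.58 at the other 9 offsets, with 646 to 920 sequences each, and against sequence totals it was between -0.01 and 0.35. Offset -3 was the highest of these in both fits. Where the adenosine was called higher, 43 of 322 positions were higher at offset -3 (median 0.45) and 20 of 288 at offset +1 (median 0.35). At offset +5 there were 14 of 296 (median 0.20). These counts share the abundance of the sequence with the call at the adenosine. With both called against sequence totals, 14 of 304 were higher at offset -3 (median 0.26) and 9 of 274 at offset +1 (median 0.21). At offset +5 only 1 of 283 was (median 0.035). Of all tested positions, 3.7% were higher in the first fit and 1.8% against sequence totals.

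Both motif groups showed this, with different counts. Of the 237 GGAC sequences with a called adenosine, 92 were called higher at offset -1 (median log2 fold change 1.19). Of the 118 such sequences in other motifs, 10 were (median 0.48). The change at the adenosine exceeded that at offset -1 by a median of 1.29 on the log2 scale in GGAC sequences and 0.70 in the others. It was smaller than the change at offset -1 in 24 of 394 GGAC sequences and in 60 of 418 others.

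**Figure D4:**
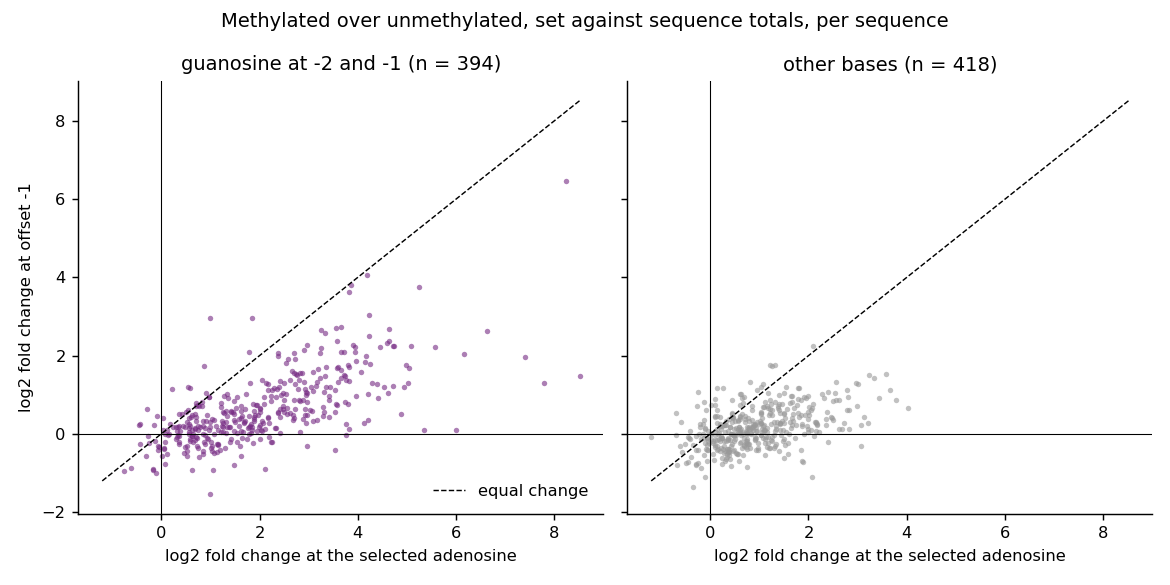
Log2 fold change at offset -1 (vertical) against that at the selected adenosine (horizontal), methylated over unmethylated libraries and set against sequence totals, with 1 point per sequence; left, guanosine at -2 and -1 (n = 394), right, other bases (n = 418). Most points lie below the dashed line of equal change, and both changes rise together (r = 0.68 on the left and 0.47 on the right).

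A like difference between motifs stood beside other DRACN adenosines of these sequences, which were not selected and lay more than 10 nt from position 51. The position just before them was called higher at 225 of 2278 tested positions (9.88%), and the position just after them at 45 of 1738 (2.59%). In GGAC motifs the position before was higher at 170 of 720 (23.6%, median log2 fold change 0.56), and in the other motifs at 55 of 1558 (3.53%, median 0.02). Against sequence totals these were 103 of 720 (14.3%) and 16 of 1558 (1.03%). In the permutated class, a designed set of 400 sequences with exchanged motifs, the position before was higher at 3 of 13 GGAC positions and 3 of 62 others. These positions share libraries, and the unselected adenosines share sequences, with the examined ones.

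Beyond offset -1, the clearest concentration of rises was at uridines at offset -3. There 37 of 322 tested positions were called higher (11.5%, median log2 fold change 0.34), against 3.7% of all tested positions. At the same offset 8 of 243 adenosines (3.29%), 3 of 155 cytidines (1.94%) and 4 of 206 guanosines (1.94%) were called higher. Uridines at offset +4 had 27 of 379 (7.12%), those at +3 had 21 of 339 (6.19%) and those at -5 had 18 of 296 (6.08%). Uridines at offsets -2 and -4 had 3.44% and 3.65%, near the whole table. Those at -2 all lie outside GGAC, where uridines at -3 had 6.52%, so motif and offset are mixed in this comparison. For uridines more than 20 nt from position 51 that share was 2.73% of 26144.

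Fewer of these uridines were called against sequence totals or without a methylated library. Without methylated replicate 1, 7 of 285 uridines were called higher at offset -3 (2.46%, against 1.42% of all positions tested in that fit), and without methylated replicate 2, 7 of 276 (2.54%, against 1.08%). Against sequence totals 11 of 322 uridines at offset -3 were higher (3.42%), with 1.8% over the whole table. Their median log2 fold change was then 0.29, close to the 0.34 of the first fit, and 78.0% lay above 0, against 71.4% there. By the same measure 1.06% to 2.36% were higher at offsets +4, +3 and -5. Offset -3 calls also went with the motif: in GGAC sequences 28 of 184 uridines were called higher (15.2%), and in the others 9 of 138 (6.52%). Uridines at other offsets did so too. At -5, -4, +3 and +4 the shares were 10.3%, 6.40%, 8.48% and 10.9% in GGAC sequences. In the others they were 2.50%, 1.70%, 4.02% and 3.92%. Offset -1 calls stood with each base at -3, and the difference between these bases was not tested. In GGAC sequences 34 of 125 positions at offset -1 were called higher with adenosine at -3 (27.2%), 31 of 144 with uridine (21.5%), 19 of 93 with guanosine (20.4%) and 9 of 56 with cytidine (16.1%).

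At each offset where the bases include uridine, uridines carried the highest pooled signal of any base in all 4 libraries of both classes, except at +2 in the m6A class. Uridines at offset -3 of the m6A class had 13.3 and 12.3 counts per 1000 in the methylated libraries, against 9.67 and 11.01 in the unmethylated libraries. Guanosines there had 3.51 and 3.42 in the methylated libraries, against 3.07 and 3.37 in the unmethylated libraries. At offset -4 uridines had 34.1 and 33.8 counts per 1000 in the methylated libraries and 33.7 and 33.4 in the unmethylated libraries, and guanosines 11.7 and 11.6 in the methylated libraries, against 12.3 and 11.7 in the unmethylated libraries. At offset -2 uridines had 53.7 and 48.5 counts per 1000 in the methylated libraries and 51.8 and 49.6 in the unmethylated libraries. The uridine level at -2 and -4 was thus alike in both groups, while that at -3 was higher in the methylated libraries by 2.50 counts per 1000 with an SD of 1.19. The sequences with uridine at -2 are all outside GGAC, and those with uridine at -3 or -4 are not.

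**Figure D5:**
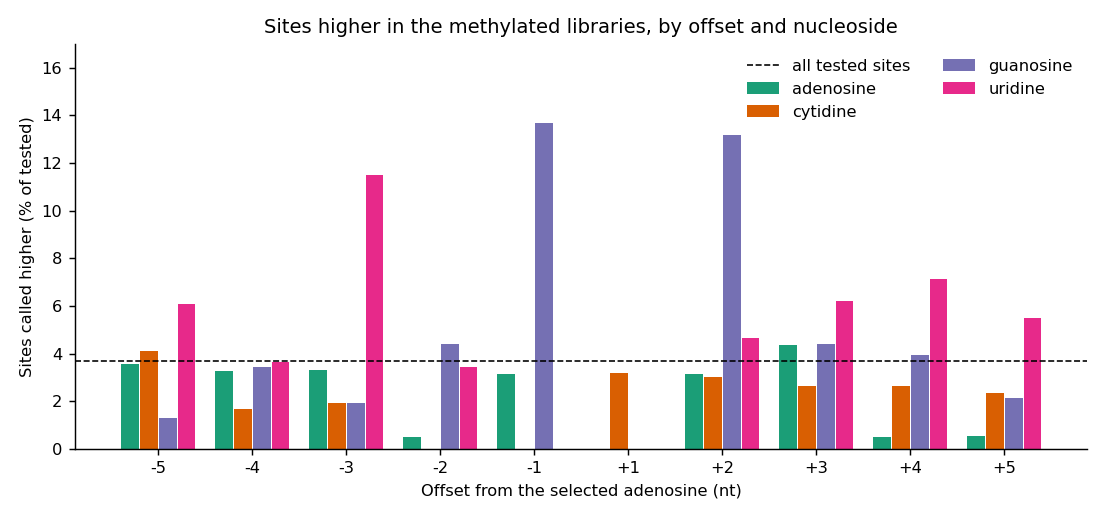
Share of tested positions called higher in the methylated libraries, by offset and nucleoside, in both classes; the dashed line is the 3.7% of all tested positions. Guanosines at -1 and uridines at -3 stand at 13.7% and 11.5%; the guanosines at +2 are only 38 positions, all in the m6A class, with 5 called.

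All 38 tested guanosines at offset +2 lie in GGACG sequences, and 5 of them were called higher (13.2%, and 1 against sequence totals). The other bases at +2 had 4.66% (uridine), 3.14% (adenosine) and 3.01% (cytidine). At offset +1 the invariant cytidine had 24 of 759 rises (3.16%) and 16 falls (2.11%), both near the whole table. In the m6A class its median log2 fold change was 0.16 and 60.4% of positions lay above 0, whereas its pooled ratio was below 1. The other 9 offsets of that class, +1 among them, had a median of 0.15 and 59.7% above 0. Offset -2 had 25 of 803 rises (3.11%) and 14 falls, of which guanosines had 15 of 342, uridines 9 of 262 and adenosines 1 of 199.

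At 6 of the other 9 offsets, the named rise belonged to an RNA with a strong rise at the adenosine as well. COA5, an assembly factor of cytochrome c oxidase, led at 3 offsets (chr2:98599989-98600009, minus strand, ctataaaaGGACTctggtctt). Its adenosine had 902 and 1135 counts in the methylated libraries, against 14 and 14 in the unmethylated libraries. Offset -2 had 183 and 286 counts in the methylated libraries, against 34 and 37 in the unmethylated libraries (log2 fold change 2.45 ± 0.33). Offset +1 had 144 and 170 in the methylated libraries, against 24 and 17 in the unmethylated libraries (2.66 ± 0.35). Offset +2 had 112 and 130 in the methylated libraries, against 21 and 22 in the unmethylated libraries (2.23 ± 0.35). All were called (edgeR, adjusted p = 2.64e-05, 2.47e-05 and 1.96e-04) and stayed called against sequence totals.

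DHX38, a splicing helicase gene, led at offsets -5 and -4 (chr16:72100496-72100516, plus strand, gtggatgaGGACTttgaagag). Its uridine at -5 had 397 and 261 counts in the methylated libraries, against 25 and 31 in the unmethylated libraries (log2 fold change 3.30 ± 0.34, edgeR, adjusted p = 6.54e-07). Its guanosine at -4 had 295 and 257 in the methylated libraries, against 30 and 26 in the unmethylated libraries (3.04 ± 0.33, adjusted p = 1.26e-06). TACO1, a mitochondrial translation activator, led at offset +4, with 191 and 183 counts in the methylated libraries, against 21 and 18 in the unmethylated libraries (log2 fold change 2.99 ± 0.35, edgeR, adjusted p = 3.53e-06). Another DRACN adenosine lies 1 nt after that position, in the aggcccaaGGACAggacttgc sequence shown with its selected motif in capitals.

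The named rises at -3, +3 and +5 were of another kind. C21orf58 (offset -3), RNF182, a ubiquitin ligase gene (offset +3), and LOC124905134 (offset +5) had adenosines with at most 17 counts in any library. At +3 RNF182 had 311 and 228 counts in the methylated libraries, against 36 and 61 in the unmethylated libraries (log2 fold change 2.23 ± 0.33, edgeR, adjusted p = 8.16e-05). At -3 C21orf58 had 110 and 158 in the methylated libraries, against 7 and 19 in the unmethylated libraries (log2 fold change 3.10 ± 0.41, edgeR). Its unmethylated libraries alone would not have met the first filter, so its p is not given. It was also called with the filter of 40 counts over the 4 libraries (edgeR). Another DRACN adenosine lies 3 nt from that position.

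Most named falls at these offsets were lost in the same way. DLX1 gave the fall at -4, -2 and +4, DDX54 at -5, NFYA at +1, DCLRE1C at +2, and ARMC5 at +3 and +5. None of these was called against sequence totals. ZKSCAN1, a zinc finger gene, at offset -3 was the exception (chr7:100033505-100033525, plus strand, ataggaaaGGACAaaaaaacc). It had 13 and 6 counts in the methylated libraries, against 82 and 89 in the unmethylated libraries. Its log2 fold change was -3.41 ± 0.43 (edgeR) and -1.86 against sequence totals. Its methylated libraries alone would not have met the first filter, so its p is not given. It was also called with the filter of 40 counts over the 4 libraries (edgeR).

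Most sequences were present as 3 oligonucleotides that differ in their tag. Of the 103 rises at offset -1, 94 were counted in all 3 oligonucleotides of their sequence, and 84 of these were higher in the methylated libraries in each. Of the 329 rises at the other 9 offsets, 306 were counted in all 3 and 276 were higher in each. The rises were called on the sum of these oligonucleotides, so agreement among them is largely fixed by the call. No share for uncalled positions is given here. The oligonucleotides of one sequence share the library and its preparation, so counting them apart repeats the measurement but not the reaction. Nothing in the labels beyond a statement of duplicates says that the 2 libraries of a group were separate reactions, and p-values then measure only the spread between these samples.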

How the data were processed

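The authors deposited raw read counts per nucleotide position for each oligonucleotide and library, without normalization, per the table itself. Per the submitters' processing notes, bedtools 2.27.1, STAR 2.7.3a and FastQC 0.11.8 were among the tools. The sources used here do not give the genome build, the tool that made the counts, the rule that assigned a read start to a position, or any removal of duplicates. A shift of read starts by 1 nt in that step would move every offset by 1.

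Oligonucleotides that share a sequence were added together. A position was tested if 2 or more libraries had 10 or more counts there, which held for 142938 positions of the whole table. The two-sided quasi-likelihood test of edgeR 4.0.16 in R 4.3.3 was used, with TMM scaling (trimmed mean of M values), the group alone in the model and Benjamini-Hochberg adjustment at 0.05. In a second fit each position was set against the total of its sequence in the library as an offset, after 0.5 was added to it. Pooled values are counts per 1000 counts of the same sequences. Counting intervals are exact and shares have 95% Wilson intervals, and both cover counting error only. Depth was 13110615 and 13265092 counts in the methylated libraries and 10483825 and 12028474 in the unmethylated libraries, taken from the table, and the precision of a comparison is limited by the 2 libraries of each group. Values were summarised in Python 3.11.15 (numpy 2.4.6, pandas 2.3.3, scipy 1.17.1) and plotted with matplotlib 3.10.9.

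Alternatives were scaling by library totals, sequence totals, DESeq2 1.42.0, other filters, oligonucleotides as separate positions, a replicate block, and leaving out each library. The filter of 40 counts over the 4 libraries and the split of the pooled ratio by GGAC were added after the data were seen. Gene symbols are those of RefSeq genes of GRCh38.p14 that overlap the table's coordinate, irrespective of strand, and only loci in exactly 1 gene (3033 of 3488) were named. Named positions were called in the first fit with both methylated libraries on one side of both unmethylated ones: at offset -1 the 8 largest rises with at least 10 counts in both methylated libraries and the 2 falls with the smallest p, and at each other offset the rise and the fall with the smallest p. One position that met this rule at offset -1 is not reported here. The positions, lists and rules were chosen with earlier results of these data known. The 61 sequences outside the described classes were used in the fit alone.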

Additional observations from a re-analysis of the deposited data

Results flagged for a closer look

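At offset +3 the 2 design classes moved in opposite directions in the pooled signal. In the m6A class both methylated libraries lay above both unmethylated libraries (8.87 and 8.47 counts per 1000 in the methylated libraries, against 8.08 and 7.47 in the unmethylated libraries, ratio 1.115). In the unmodified class both methylated libraries lay below both unmethylated libraries (7.87 and 7.52 in the methylated libraries, against 9.02 and 8.13 in the unmethylated libraries, ratio 0.897). The difference between the classes was not tested. Position by position, 36 of 661 tested positions of the m6A class were called higher at this offset (5.45%) and 5 lower (0.76%, edgeR). In the unmodified class 10 of 354 were higher (2.82%) and 7 lower (1.98%). Over the whole table these shares were 3.7% and 2.01%. The median log2 fold change was 0.16 in the m6A class and 0.03 in the unmodified class. In the latter 51.7% of the tested positions lay above 0, so they did not share the fall of the pooled signal. In the unmodified class uridines at +3 had 20.7 and 19.9 counts per 1000 in the methylated libraries, against 28.4 and 24.0 in the unmethylated libraries. The tested positions pointed the other way: of 105 tested uridines there, 59.05% had a log2 fold change above 0, the median was 0.16 (0.12 against sequence totals), and 1 was called higher (edgeR).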

How the results depend on the processing

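At offset -1 the count of 103 rises came to 64 against sequence totals, 67 with DESeq2 (which gave no adjusted p for 157 of the 901 positions, 8 of them among the 103) and 65 with at least 50 counts in 2 libraries, and to between 23 and 96 when each library was left out. It stayed within 1.5 times the reported count in the other alternatives, 96 to 126, including 107 with the replicate block. The share of all tested positions called higher changed too, from 3.7% to 1.8% against sequence totals and 2.12% with DESeq2. With at least 50 counts in 2 libraries it was 8.18%. Fewer positions were tested at offset -1 there, and 54 of 182 were higher in the m6A class (29.7%) and 11 of 95 in the unmodified class (11.6%). At the other 9 offsets the 329 rises came to 89 against sequence totals and 181 with DESeq2, and to between 81 and 377 when each library was left out. The block gave 360 there, and numbers did not pair the libraries (the deviations of same-numbered libraries from their group means correlated at -0.08 over 142938 positions). The pooled ratio of 1.44 at offset -1 became 1.31 with each sequence weighted equally (1641 sequences with at least 100 counts in every library), 1.09 in the unmodified class, 1.71 in GGAC sequences of the m6A class and 1.11 in its other sequences. It lay between 1.39 and 1.49 when each library was left out, and was 1.37 without the 10 sequences that held 17.01% of the counts at position 50. Against sequence totals DLX1 turned direction, to 0.51 at offset -1, 0.35 at -4, 0.33 at -2 and 0.33 at +4, and 7 more of the 28 named positions were not called. A fit that leaves out a library has 1 library in an arm, which is assumed to vary like the other group. The cause of these changes was not tested. Depth limits the rest: 7927 of 34592 positions had no count, and 25183 were not tested.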
